A study of Homo sapiens with 18 samples.

Results

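The genes described here are direct transcriptional targets of p53 other than its negative regulators, the CDK inhibitors, the death receptors, the BCL2 family and the sestrins. The list names 44 genes, drawn up with earlier results of these data known, and members were matched to the arrays by symbol. A probe with that single symbol was found for 42 of them. The probe table holds 21448 probes. BTG2 and FDXR had no named probe and were not analysed here. Each of the 42 measured genes had exactly 1 probe. Nearly all of them rose in leukaemia cells given either of 2 MDM2 inhibitors: 37 rose with RG7112, 38 with HDM201, and none fell with either compound. The increases ran from 1.26-fold for PTP4A1 under RG7112 to 16.5-fold for CMBL under HDM201.

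p53 is a transcription factor that binds a paired decamer motif in the DNA of its targets and raises their transcription. MDM2 binds p53, blocks it and marks it for degradation, so a compound that occupies the p53 pocket of MDM2 frees p53 in cells that carry the wild-type protein. Among the targets are sensors and enzymes of DNA repair, brakes on growth, genes of cell death and mitochondrial quality, and enzymes of sugar, lipid and redox metabolism.

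The samples were cultures of OCI-AML3, an established human acute myeloid leukaemia line, with the genotype labelled wildtype. One group of 6 received the solvent DMSO, a second group of 6 received RG7112 at 2 µM and the third group of 6 received HDM201 at 500 nM, each for 24 h. Culture was in RPMI with serum, and each compound was used at a single dose and a single time. All groups are one cell line, the labels call the replicates biological without saying how the cultures were separated, and p-values therefore measure the spread between these samples. Signals are log2 values, changes are differences of group means on that log2 scale, given with their SE (the model's standard error, 6 arrays per group), and folds are derived from these differences. "Rose" is used of a gene whose p, adjusted over all 21448 probes, lay under 0.05. RNA came from whole cultures, so a change in the share of cells that express a gene and a change per cell cannot be told apart.

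Array medians lay between 6.44 and 6.57. The array of RG7112 replicate 3 had a narrower spread than the others (interquartile range 3.45 against 3.70 to 3.91). Earlier results of these data showed that arrays numbered 1 to 3 and arrays numbered 4 to 6 form 2 sets within each group. The labels name no batch behind these sets, and the values within each set stand beside the main results. Without RG7112 replicate 3 the counts of members that rose were 37 for RG7112 and 40 for HDM201. Over all probes, counted in both directions, those that passed went from 3757 to 3530 for RG7112 and from 4032 to 5212 for HDM201. Of 9 myeloid markers 8 were measured, and 6 of these lay above the median of all probe means (6.51), with LYZ at 12.9 and SPI1 at 10.5, while MPO and CD14 lay below it at 5.45 and 5.99. The 4 T cell markers lay between 3.69 and 4.90, and the B cell markers CD79A and PAX5 lay at 6.91 and 6.51 with MS4A1 at 3.76. Markers of red cells lay between 4.99 and 7.31, and those of fibroblasts and epithelium between 4.16 (EPCAM) and 8.32 (COL1A2). Summed over the 8 myeloid markers the mean log2 signals were 68.4 under DMSO, 71.9 under RG7112 and 72.3 under HDM201, with ITGAM at 5.89, 7.98 and 8.07. The corresponding sums were 17.1, 17.5 and 17.4 for T cells, 17.2, 17.1 and 17.3 for B cells, 17.1, 17.8 and 17.3 for red cells, and 24.8, 25.2 and 24.6 for fibroblasts and epithelium. The part of these marker levels in the results was not tested.

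The comparison of each compound with DMSO asks how far the target genes respond when MDM2 is inhibited. Under RG7112 37 of 42 members rose, where 7.90% of all probes rose, and 5 did not pass. Under HDM201 38 of 42 rose, where 9.16% of all probes rose, and 4 did not pass. No member fell, while 9.61% of all probes fell under RG7112 and 9.64% under HDM201. The median change of the members was 1.13 under RG7112 and 1.22 under HDM201, against medians of 0.03 and 0.02 over all probes. An increase of at least 2-fold was seen in 29 members under each compound, where 1.21% of all probes rose that far under RG7112 and 1.53% under HDM201. All 6 RG7112 arrays lay above all 6 DMSO arrays for 37 members, against 4.29% of all probes, and the HDM201 arrays did so for 36 members, against 6.63% of all probes. Both comparisons use the same DMSO arrays. For RG7112 the median change was 1.36 when read in replicates 1 to 3 and 1.14 in replicates 4 to 6, and for HDM201 it was 1.44 and 1.22. In each set and for each compound 40 of the 42 changes were positive. Over both sets together 55.9% of all probes had a positive change with RG7112 and 55.2% with HDM201. The share of all probes within each set was not counted.

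**Figure D1:**
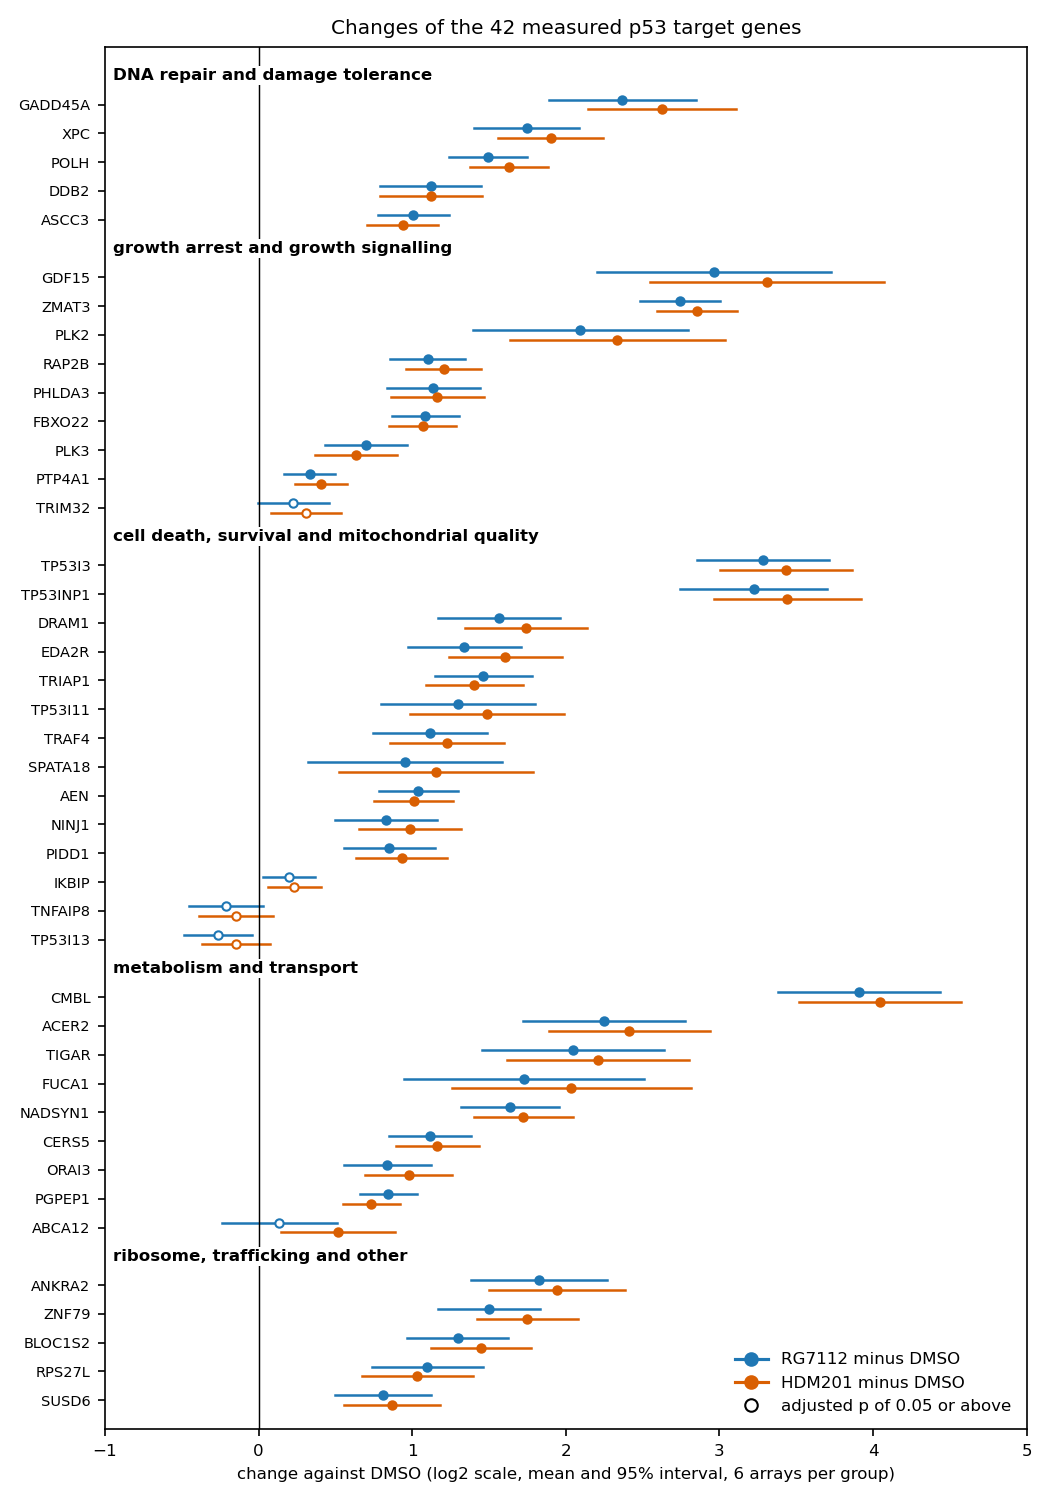
Change of each of the 42 measured genes against DMSO on the log2 scale, with the 95% interval of the linear model (6 arrays per group), for RG7112 (blue) and HDM201 (orange), ordered by role. Open circles mark an adjusted p of 0.05 or above: TRIM32, IKBIP, TNFAIP8 and TP53I13 for both compounds and ABCA12 for RG7112.

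The members lay high in the order of induction of all 21448 probes. With RG7112, 4 of them stood among the 10 largest increases, 15 among the first 100 and 30 among the first 300. With HDM201 the numbers were 4, 15 and 27. CMBL held rank 5 under both compounds, TP53I3 rank 8 under both, TP53INP1 ranks 9 and 7, and GDF15 rank 10 under both. ZMAT3 followed at ranks 14 and 17, GADD45A at 30 and 25, ACER2 at 36 and 41, PLK2 at 45 under both and TIGAR at 48 under both. At the other end PTP4A1, the member with the smallest increase that passed under RG7112, held rank 1815.

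**Figure D2:**
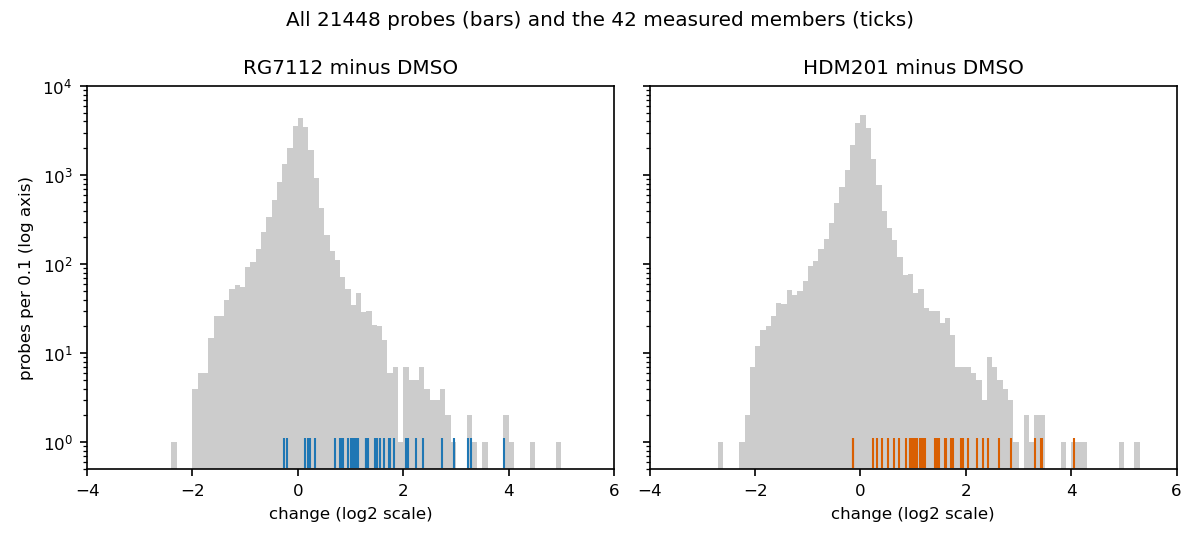
Number of probes per 0.1 of log2 change against DMSO (grey bars, log axis, all 21448 probes) for RG7112 and HDM201, with a coloured tick for each of the 42 members. Most ticks lie in the upper tail, with a median of 1.13 for RG7112 and 1.22 for HDM201, and CMBL is the rightmost tick in both panels.

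The DNA next to the start sites of the members is shown because p53 recognises a paired motif, and the members rose together. RefSeq windows of 300 bases on GRCh38.p14, from 250 bases before to 50 after a start, were found for 35 of the 42 measured members, in 50 windows, as some genes have several starts. The p53 half-site consensus, a palindromic decamer that reads the same on both strands, was searched with no mismatch. It was found in 6 of 50 member windows (12%), and in 6.63% of all 35116 windows. Counted by gene, 6 of 35 members (17.1%) and 8.06% of all 27305 genes held one. A full site, a pair of half-sites with at most 13 bases between them, stood in 10 of all 35116 windows (0.0285%), and 1 of these belongs to DDB2. The stretches below read 5′ to 3′ on the strand of the gene, and capitals mark the bases of each half-site.

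The coordinates given here are those of the whole printed stretches. The DDB2 pair lies within chr11:47214975-47215004 (plus strand), with 1 base between its decamers. It runs from base 6 to base 26 after the start in one of the gene's 2 windows. The AEN decamer, on chr15:88621266-88621339 (plus strand), begins 34 bases before the start. The RAP2B one, on chr3:153162125-153162214 (plus strand), begins 61 bases before it. In RPS27L the decamer begins 59 bases before the start, on chr15:63157487-63157576 (minus strand). In PLK2 it begins 132 bases before, on chr5:58460169-58460258 (minus strand), and in ABCA12 82 bases before, on chr2:215138659-215138748 (minus strand).
DDB2: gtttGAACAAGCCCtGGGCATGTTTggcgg
AEN: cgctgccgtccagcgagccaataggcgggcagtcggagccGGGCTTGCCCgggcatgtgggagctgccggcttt
RAP2B: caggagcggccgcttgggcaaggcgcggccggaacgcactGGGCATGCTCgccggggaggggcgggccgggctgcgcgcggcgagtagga
RPS27L: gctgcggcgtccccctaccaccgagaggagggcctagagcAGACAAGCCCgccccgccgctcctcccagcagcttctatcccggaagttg
PLK2: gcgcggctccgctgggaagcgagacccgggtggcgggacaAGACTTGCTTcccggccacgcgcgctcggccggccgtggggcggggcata
ABCA12: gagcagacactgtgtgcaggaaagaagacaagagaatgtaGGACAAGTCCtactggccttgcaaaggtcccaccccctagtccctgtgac
Among the genes with such a match, DDB2, AEN, RAP2B and RPS27L rose between 2.01-fold and 2.30-fold under the 2 compounds. PLK2 rose more, and ABCA12 did not pass under RG7112. No window was found for 7 members, ASCC3, CMBL, FBXO22, GADD45A, PGPEP1, PHLDA3 and TP53INP1. CMBL, TP53INP1 and GADD45A, which rose more than PLK2, could therefore not be searched. A match of letters describes the window and does not show binding, and many p53 sites lie outside windows of this kind.

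All 5 genes of DNA repair and damage tolerance rose under both compounds, with a median change of 1.5 for RG7112 and 1.63 for HDM201. GADD45A, a growth arrest and DNA damage protein that binds PCNA, had DMSO signals from 6.52 to 7.54 (median 6.83), RG7112 signals from 8.76 to 9.75 (median 9.23) and HDM201 signals from 9.0 to 10.1 (median 9.50). No array of either treatment overlapped the DMSO arrays. GADD45A rose 5.16-fold with RG7112 (2.37 ± 0.23 SE, adjusted p = 4.66e-07) and 6.17-fold with HDM201 (2.63 ± 0.23, adjusted p = 6.80e-08). XPC, which senses DNA damage for nucleotide excision repair, ran from 8.34 to 9.45 under DMSO (median 8.96). It ran from 10.6 to 11.0 under RG7112 (median 10.6) and from 10.6 to 11.1 under HDM201 (median 10.8). Its groups did not overlap either, and the treated arrays were much closer to each other than the DMSO arrays. XPC rose 3.35-fold with RG7112 (1.74 ± 0.16, adjusted p = 3.32e-07) and 3.73-fold with HDM201 (1.90 ± 0.16, adjusted p = 5.71e-08).

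DDB2, the subunit that binds ultraviolet lesions in chromatin and the gene with the full consensus pair printed above, ranged from 7.73 to 8.79 under DMSO (median 8.35), 9.17 to 9.60 under RG7112 (median 9.39) and 9.08 to 9.70 under HDM201 (median 9.38). The treated arrays lay above every DMSO array and close to each other. It rose 2.17-fold with RG7112 (1.12 ± 0.16, adjusted p = 3.58e-05) and 2.18-fold with HDM201 (1.12 ± 0.16, adjusted p = 2.22e-05). POLH, the polymerase that copies past ultraviolet lesions, rose 2.82-fold and 3.10-fold. ASCC3, a helicase used in alkylation repair, rose 2.01-fold and 1.91-fold.

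Of 9 measured genes of growth arrest and growth signalling 8 rose under each compound, and TRIM32 did not pass. GDF15, a secreted stress cytokine, ran from 6.61 to 7.46 under DMSO (median 7.17), 9.04 to 10.9 under RG7112 (median 10.2) and 9.42 to 11.5 under HDM201 (median 10.4). The treated arrays covered a wider range than those of any other member and stayed clear of DMSO. GDF15 rose 7.81-fold with RG7112 (2.97 ± 0.37, adjusted p = 7.39e-06) and 9.93-fold with HDM201 (3.31 ± 0.37, adjusted p = 1.14e-06). ZMAT3, a zinc finger protein that binds RNA, ran from 6.78 to 7.57 under DMSO (median 7.19), 9.82 to 10.2 under RG7112 (median 9.89) and 9.85 to 10.2 under HDM201 (median 10.0). The treated arrays were tightly grouped, and ZMAT3 had the smallest adjusted p of all probes in both comparisons. It rose 6.69-fold with RG7112 (2.74 ± 0.13, adjusted p = 2.49e-11) and 7.22-fold with HDM201 (2.85 ± 0.13, adjusted p = 1.16e-11).

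PLK2, a polo-like kinase, ran from 4.80 to 6.67 under DMSO (median 5.56), 7.05 to 8.67 under RG7112 (median 7.78) and 7.20 to 8.72 under HDM201 (median 8.06). Its spread within each group was wide, and the groups stayed apart. PLK2 rose 4.27-fold with RG7112 (2.09 ± 0.34, adjusted p = 1.32e-04) and 5.04-fold with HDM201 (2.33 ± 0.34, adjusted p = 2.71e-05). Its relative PLK3 rose 1.62-fold and 1.55-fold, and the HDM201 call of PLK3 was lost within replicates 4 to 6 alone (adjusted p = 0.0930). PHLDA3, which holds AKT off the membrane, rose 2.20-fold and 2.24-fold. RAP2B, a small GTPase, rose 2.15-fold and 2.30-fold, and FBXO22, a substrate receptor of a ubiquitin ligase, 2.12-fold and 2.10-fold. PTP4A1, a phosphatase, rose by 0.33 ± 0.08 and 0.40 ± 0.08. The RG7112 call of PTP4A1 was lost within replicates 4 to 6 alone (adjusted p = 0.145).

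TRIM32, a ubiquitin ligase, ran from 7.63 to 7.88 under DMSO, 7.44 to 8.31 under RG7112 and 7.91 to 8.21 under HDM201. It differed by 0.23 ± 0.11 with RG7112 (adjusted p = 0.172) and by 0.31 ± 0.11 with HDM201 (adjusted p = 0.0571). RG7112 replicate 3, at 7.44, lay below the other arrays of its group (8.02 to 8.31). Without that array TRIM32 passed in both comparisons (adjusted p = 0.00455 for RG7112 and 0.00426 for HDM201). Without RG7112 replicate 1 it passed for HDM201 (adjusted p = 0.0451). TRIM32 also passed for HDM201 with array weights (adjusted p = 0.00637), with either filter on dim probes (0.0470 and 0.0345), after a further quantile normalization (0.0256), on the 12 arrays compared alone (0.00695), with the replicate set as a term (0.0431) and in replicates 4 to 6 alone (0.0288). Array weights gave it the call for RG7112 too (adjusted p = 0.0102).

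Of 14 genes of cell death, survival and mitochondrial quality 11 rose under each compound and 3 did not pass. TP53I3, an oxidoreductase also called PIG3, ran from 7.24 to 7.55 under DMSO (median 7.36), 10.2 to 11.1 under RG7112 (median 10.7) and 10.2 to 11.4 under HDM201 (median 10.8). The DMSO arrays lay close together, far below all treated arrays. TP53I3 rose 9.74-fold with RG7112 (3.28 ± 0.21, adjusted p = 3.30e-09) and 10.8-fold with HDM201 (3.43 ± 0.21, adjusted p = 1.37e-09). TP53INP1, a stress protein that works with p53 and in autophagy, ran from 5.79 to 7.07 under DMSO (median 6.41), 9.13 to 10.1 under RG7112 (median 9.61) and 9.50 to 10.3 under HDM201 (median 9.74). Its groups stayed more than 2 log2 units apart. TP53INP1 rose 9.33-fold with RG7112 (3.22 ± 0.23, adjusted p = 1.34e-08) and 10.9-fold with HDM201 (3.44 ± 0.23, adjusted p = 3.01e-09).

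The other members of this role rose less. DRAM1, a lysosomal membrane protein of autophagy, rose 2.96-fold with RG7112 and 3.34-fold with HDM201. EDA2R, a receptor of the TNF receptor family, rose 2.53-fold and 3.04-fold, and TRIAP1, a small mitochondrial protein that restrains apoptosis, 2.76-fold and 2.65-fold. TP53I11 rose 2.46-fold and 2.81-fold, and TRAF4, an adapter of TNF receptor signalling, 2.17-fold and 2.34-fold. AEN, an apoptosis-enhancing nuclease, rose 2.06-fold and 2.01-fold. PIDD1, the scaffold that activates caspase-2, rose 1.80-fold and 1.91-fold. NINJ1, which ruptures the plasma membrane of dying cells, rose 1.78-fold and 1.98-fold.

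SPATA18, a factor of mitochondrial quality control, was dim and uneven. It ran from 4.50 to 4.95 under DMSO (median 4.78), 5.02 to 6.70 under RG7112 (median 5.67) and 4.73 to 6.64 under HDM201 (median 6.02). HDM201 replicate 6 lay within the DMSO range, and the other treated arrays lay above it. SPATA18 rose 1.93-fold with RG7112 (0.95 ± 0.30, adjusted p = 0.0344) and 2.22-fold with HDM201 (1.15 ± 0.30, adjusted p = 0.00918). The changes within replicates 1 to 3 were 1.36 and 1.70, and those within 4 to 6 were 0.54 and 0.61. The RG7112 call did not survive the omission of a single array among DMSO replicates 2 to 6 and RG7112 replicates 1 to 3 (adjusted p from 0.0507 to 0.0917). It was also lost with array weights (adjusted p = 0.0552), after a further quantile normalization (adjusted p = 0.0507) and in replicates 4 to 6 alone (adjusted p = 0.101), where the HDM201 call was lost too (adjusted p = 0.0585).

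The members that did not pass in this role were IKBIP, TNFAIP8 and TP53I13. IKBIP ran from 6.99 to 7.37 under DMSO, 7.35 to 7.53 under RG7112 and 7.25 to 7.68 under HDM201, with differences of 0.20 ± 0.08 (adjusted p = 0.106) and 0.23 ± 0.08 (adjusted p = 0.0522). The HDM201 difference passed without DMSO replicate 6, without RG7112 replicate 3 and without HDM201 replicate 6 (adjusted p from 0.0252 to 0.0419). It passed as well with array weights (adjusted p = 0.0344), with either filter on dim probes (0.0422 and 0.0278) and with the replicate set as a term (0.0486). TNFAIP8, an inhibitor of apoptosis, ran from 7.48 to 8.18 under DMSO, 7.35 to 7.85 under RG7112 and 7.50 to 8.0 under HDM201. The 3 groups of TNFAIP8 overlapped, with differences of -0.21 ± 0.12 (adjusted p = 0.224) and -0.14 ± 0.12 (adjusted p = 0.461). TP53I13 ran from 6.29 to 6.69 under DMSO, 5.99 to 6.62 under RG7112 and 6.20 to 6.58 under HDM201, with differences of -0.26 ± 0.11 (adjusted p = 0.0947) and -0.15 ± 0.11 (adjusted p = 0.401). Without RG7112 replicate 1 TP53I13 passed as lower under RG7112 (adjusted p = 0.0273).

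**Figure D3:**
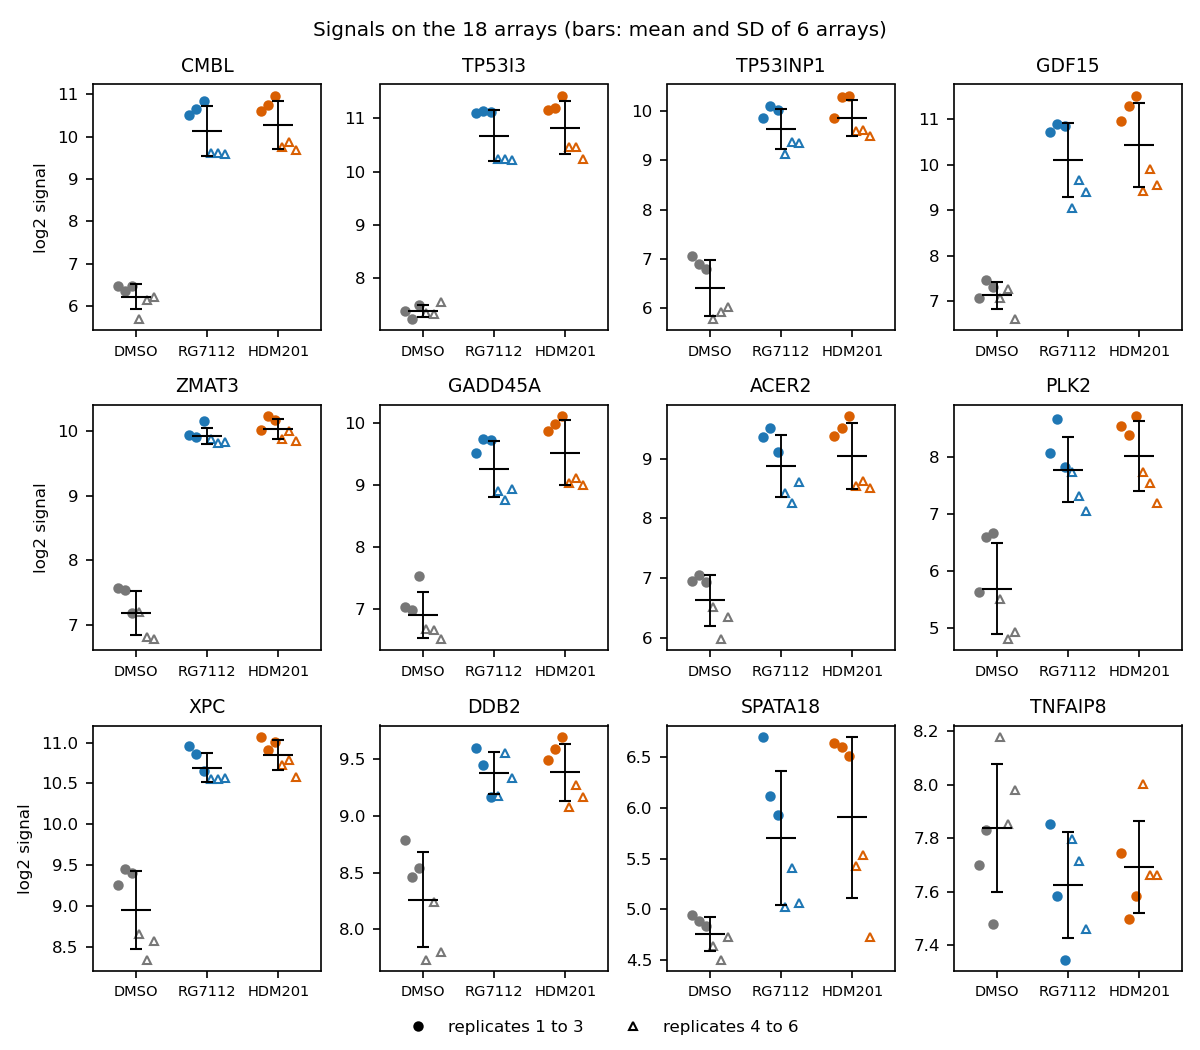
Log2 signal on each of the 18 arrays for the 8 members with the highest mean change and for XPC, DDB2, SPATA18 and TNFAIP8, by group, with filled circles for replicates 1 to 3, open triangles for replicates 4 to 6, and bars for the mean and SD of 6 arrays. Treated arrays lie above all DMSO arrays except for SPATA18, where HDM201 replicate 6 is at 4.73, and TNFAIP8, where the groups overlap.

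Of 9 measured genes of metabolism and transport 8 rose with RG7112 and 9 with HDM201. CMBL, a hydrolase of lactones and prodrugs, ran from 5.71 to 6.49 under DMSO (median 6.28), 9.59 to 10.8 under RG7112 (median 10.1) and 9.68 to 11.0 under HDM201 (median 10.2). The gap between DMSO and treated arrays was the widest among the members. CMBL rose 15.0-fold with RG7112 (3.91 ± 0.25, adjusted p = 4.29e-09) and 16.5-fold with HDM201 (4.04 ± 0.25, adjusted p = 1.62e-09). ACER2, a ceramidase that yields sphingosine, ran from 5.98 to 7.05 under DMSO (median 6.72), 8.26 to 9.51 under RG7112 (median 8.86) and 8.50 to 9.71 under HDM201 (median 9.0). No treated array of ACER2 fell in the DMSO range. It rose 4.76-fold with RG7112 (2.25 ± 0.25, adjusted p = 2.46e-06) and 5.33-fold with HDM201 (2.41 ± 0.25, adjusted p = 5.88e-07). The ceramide synthase CERS5, which runs the opposite step, rose 2.17-fold and 2.24-fold.

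TIGAR, a phosphatase that lowers fructose 2,6-bisphosphate and slows glycolysis, ran from 5.97 to 7.68 under DMSO (median 6.80), 8.15 to 9.74 under RG7112 (median 8.86) and 8.62 to 9.66 under HDM201 (median 8.96). The groups were wide and stayed apart. It rose 4.13-fold with RG7112 (2.05 ± 0.28, adjusted p = 2.67e-05) and 4.62-fold with HDM201 (2.21 ± 0.28, adjusted p = 6.67e-06). FUCA1, a lysosomal enzyme that removes fucose, had wide groups that did not overlap. FUCA1 ran from 5.51 to 7.04 under DMSO (median 6.37), 7.28 to 9.0 under RG7112 (median 8.02) and 7.50 to 9.28 under HDM201 (median 8.44). It rose 3.31-fold with RG7112 (1.73 ± 0.37, adjusted p = 0.00245) and 4.10-fold with HDM201 (2.04 ± 0.37, adjusted p = 4.09e-04). NADSYN1, the enzyme of the last step of NAD synthesis, rose 3.11-fold and 3.30-fold. ORAI3, a calcium channel subunit, rose 1.79-fold and 1.97-fold, and PGPEP1, a peptidase, 1.80-fold and 1.66-fold.

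ABCA12, a lipid transporter known from skin, was the only member with a mean signal below the lower quartile of all probes (4.65). It ran from 3.37 to 3.91 under DMSO (median 3.62), 3.32 to 4.16 under RG7112 (median 3.80) and 3.73 to 4.79 under HDM201 (median 3.99). Its groups overlapped, and 2 HDM201 arrays (replicates 2 and 3, at 4.79 and 4.62) lay above the rest. It differed by 0.13 ± 0.18 with RG7112 (adjusted p = 0.660) and rose by 0.52 ± 0.18 with HDM201 (adjusted p = 0.0482). That increase was 0.84 in the first set of replicates (1 to 3) and 0.19 in the other (4 to 6). The call was lost on leaving out any single array among HDM201 replicates 2, 3 and 5, DMSO replicates 1, 2, 3, 5 and 6, and RG7112 replicates 2 and 4 (adjusted p from 0.0554 to 0.138). It was also lost with each array's median subtracted (adjusted p = 0.0693), after a further quantile normalization (adjusted p = 0.0576) and in replicates 4 to 6 alone (adjusted p = 0.592).

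All 5 genes grouped under ribosome, trafficking and other roles rose under both compounds, with a median change of 1.30 for RG7112 and 1.45 for HDM201. ANKRA2, an ankyrin repeat protein, ran from 6.26 to 7.27 under DMSO (median 7.04), 8.23 to 9.24 under RG7112 (median 8.71) and 8.39 to 9.34 under HDM201 (median 8.87). It rose 3.55-fold with RG7112 (1.83 ± 0.21, adjusted p = 3.72e-06) and 3.84-fold with HDM201 (1.94 ± 0.21, adjusted p = 9.84e-07). ZNF79, a zinc finger protein, ran from 6.50 to 7.25 under DMSO (median 7.09), 8.22 to 8.90 under RG7112 (median 8.41) and 8.47 to 9.17 under HDM201 (median 8.63). Neither gene had a treated array in the DMSO range. ZNF79 rose 2.83-fold (1.5 ± 0.16, adjusted p = 1.29e-06) and 3.36-fold (1.75 ± 0.16, adjusted p = 9.96e-08). BLOC1S2, a subunit of a complex that positions lysosomes, rose 2.46-fold and 2.73-fold. RPS27L, a close relative of a ribosomal protein, rose 2.14-fold and 2.05-fold, and SUSD6, a membrane protein, 1.75-fold and 1.83-fold.

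Other genes of the p53 pathway were read from the same model. Of 11 measured targets outside the list above 9 rose with RG7112 and 8 with HDM201, where 7.90% and 9.16% of all probes rose. None fell, and the median changes were 1.45 and 1.52. CDKN1A, the cell cycle inhibitor p21, rose by 3.97 ± 0.33 and 4.10 ± 0.33, a fitted change just above that of CMBL. SESN1 and SESN2, sestrins that restrain mTOR, rose 3.95-fold and 2.89-fold with RG7112 and 4.39-fold and 3.34-fold with HDM201. TNFRSF10B, a TRAIL receptor, rose 3.10-fold and 3.38-fold, and RRM2B, a ribonucleotide reductase subunit, 2.91-fold and 3.04-fold. PERP, PMAIP1, SFN, PPM1D, CHEK2 and USP7 are named here after their values were seen. PERP rose under RG7112 (0.54 ± 0.18, adjusted p = 0.0460) and did not pass under HDM201 (0.45 ± 0.18, adjusted p = 0.0973). PMAIP1 and SFN passed under neither. Among 10 measured regulators of p53, MDM2 (5.95-fold and 5.98-fold) and the phosphatase PPM1D (2.17-fold and 2.32-fold) rose. The kinase CHEK2 fell under both compounds (-0.51 ± 0.15, adjusted p = 0.0239, and -0.71 ± 0.15, adjusted p = 0.00193). USP7, which removes ubiquitin from MDM2 and p53, fell under RG7112 (-0.23 ± 0.08, adjusted p = 0.0411), and the other 6 regulators passed under neither compound. Thus 2 of 10 regulators fell with RG7112 and 1 of 10 with HDM201, where 9.61% and 9.64% of all probes fell. The HDM201 count is near that share.

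The direct comparison of HDM201 with RG7112 uses the DMSO arrays only in the shared estimate of spread. It sets 500 nM of one compound beside 2 µM of the other, so the doses differ and the values describe these treatments as given. None of the 42 members passed with limma (0 of 21448 probes passed, 0%), and at an unadjusted p under 0.05 there were 1 member, ABCA12, and 749 probes. The ABCA12 difference was 0.38, with a 95% interval from 0.01 to 0.76 and an adjusted p of 0.991. For CMBL the difference was 0.13 (-0.39 to 0.66), for TP53I3 0.15 (-0.28 to 0.58), for ZMAT3 0.11 (-0.15 to 0.37) and for GDF15 0.35 (-0.42 to 1.11). The interval of GDF15 reaches a difference of about 2-fold, and over all members the intervals lay between -0.47 and 1.11. This model has no term for the replicate sets, so differences between the sets within a group widen these intervals. HDM201 was the higher of the 2 in 35 of 42 members, where 51.0% of all probes were higher, and the median difference was 0.11. All members are read from the same 12 arrays, so these 35 are not separate observations.

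The DMSO cultures themselves differed in the level of these genes. In 34 of 42 members the mean of DMSO replicates 1 to 3 was above that of replicates 4 to 6, with a median difference of 0.29, while over all probes the median difference was 0.00 and 50% were positive. All 3 DMSO arrays of replicates 1 to 3 lay above all of replicates 4 to 6 in 18 members, where 7.11% of all probes did so. The opposite order held for 1 member, TNFAIP8 (6.95% of all probes), with 7.67 ± 0.18 (SD, n = 3) in replicates 1 to 3 and 8.0 ± 0.16 in 4 to 6. The sets were recognised in these same arrays, so their difference is described and was not tested.

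The 5 widest DMSO differences were those of PLK2, FUCA1, TP53INP1, TIGAR and XPC. PLK2 had DMSO means of 6.30 ± 0.58 (SD, n = 3) in replicates 1 to 3 and 5.07 ± 0.37 in 4 to 6, a difference of 1.22. FUCA1 stood at 6.94 ± 0.15 and 5.80 ± 0.25, and TP53INP1 at 6.92 ± 0.14 and 5.91 ± 0.12. In TIGAR the means were 7.31 ± 0.46 and 6.37 ± 0.41, with the 2 sets just apart, and in XPC 9.37 ± 0.10 and 8.52 ± 0.16. CDKN1A and MDM2, which are not members, showed the same order with differences of 1.65 and 0.89.

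With the compounds the sets separated in more members. Replicates 1 to 3 lay above 4 to 6 without overlap in 30 members under RG7112, where 7.42% of all probes did so, and in 29 under HDM201, where 11.6% did. The opposite order held for none of the members, against 7.62% and 13.3% of all probes. The median difference between the sets was 0.39 under RG7112 and 0.48 under HDM201. For 17 members under RG7112 and 15 under HDM201 the sets were apart with the compound and overlapped under DMSO, a pattern held by 5.80% and 9.26% of all probes. Members went different ways from DMSO to treatment. In XPC the difference between the sets was 0.85 under DMSO, 0.27 under RG7112 and 0.30 under HDM201. RPS27L went from 0.83 to 0.26 and 0.11, EDA2R from 0.65 to -0.22 and -0.08, and DDB2 from 0.67 to 0.05 and 0.42. The EDA2R value under RG7112 rests on RG7112 replicate 3, and without that array it was 0.13. For DDB2 it was 0.17 without the array, for XPC 0.35 and for RPS27L 0.26. In all 4 genes the sets lay nearer to each other in treated cells than in DMSO cells, with that array or without it. FUCA1 kept its difference, with 1.14 under DMSO, 1.34 under RG7112 and 1.5 under HDM201. XPC, RPS27L, EDA2R, DDB2 and FUCA1 were singled out here after their values were seen.

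**Figure D4:**
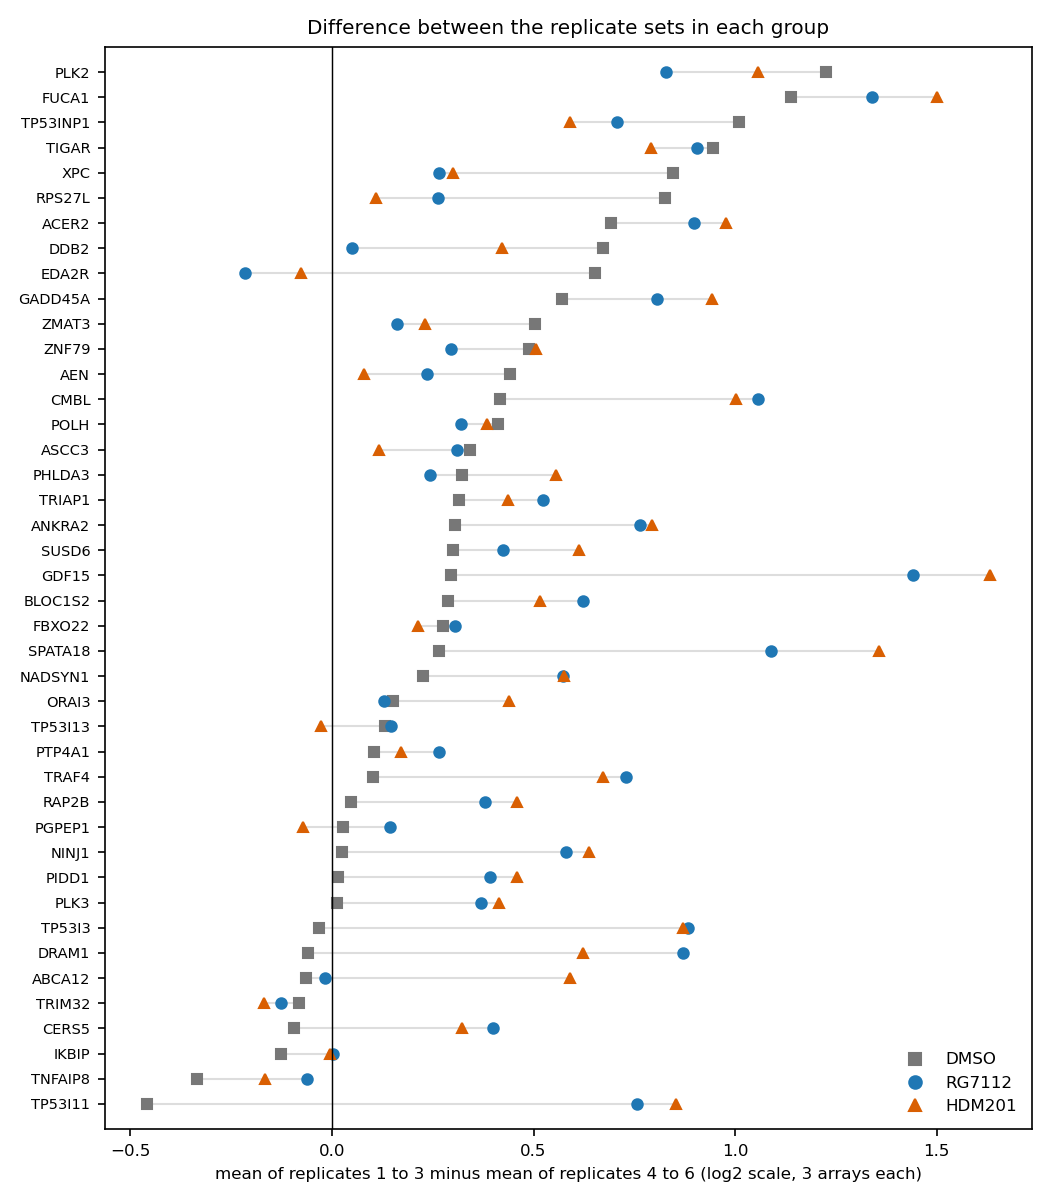
Mean of replicates 1 to 3 minus mean of replicates 4 to 6 on the log2 scale (3 arrays each) for the 42 members, under DMSO (grey squares), RG7112 (blue circles) and HDM201 (orange triangles), ordered by the DMSO difference. PLK2 has the widest DMSO difference (1.22), and TP53I3 has -0.03 under DMSO with 0.88 and 0.87 under the compounds.

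TP53I3 had DMSO sets that overlapped and treated sets that did not. Its DMSO arrays gave 7.37 ± 0.13 (SD, n = 3) in replicates 1 to 3 and 7.41 ± 0.12 in 4 to 6. Under RG7112 the sets lay at 11.12 ± 0.02 and 10.23 ± 0.01, and under HDM201 at 11.26 ± 0.14 and 10.39 ± 0.13. TP53I3 rose by 3.74 in replicates 1 to 3 and 2.83 in 4 to 6 with RG7112, and by 3.88 and 2.98 with HDM201. The change differed between the sets by 0.92 ± 0.15 for RG7112 (adjusted p = 0.0386) and by 0.90 ± 0.15 for HDM201 (adjusted p = 0.0236), 2 tests that share the DMSO arrays and rest on sets recognised in these data. TP53I3 was the only member to pass this test, which 0.0373% of all probes passed for RG7112 and 0.149% for HDM201. The RG7112 call did not hold on leaving out any of 14 single arrays, namely the 6 DMSO arrays, RG7112 replicates 1, 2, 4, 5 and 6, and HDM201 replicates 2, 4 and 5 (adjusted p from 0.0581 to 0.182). It was lost as well with each array's median subtracted (adjusted p = 0.0790). For HDM201 the call did not hold without one of 7 arrays, namely HDM201 replicates 2, 3, 4 and 6 and DMSO replicates 2, 5 and 6 (adjusted p from 0.0501 to 0.0974).

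GDF15 had the widest separation of the sets in treated cells. It stood at 10.81 ± 0.09 and 9.37 ± 0.32 under RG7112 and at 11.26 ± 0.28 and 9.62 ± 0.25 under HDM201, against 7.28 ± 0.20 and 6.98 ± 0.34 under DMSO (SD, n = 3). Its change was 3.54 and 2.39 within the sets for RG7112 and 3.98 and 2.64 for HDM201. The difference between the sets did not pass (1.15 ± 0.27, adjusted p = 0.316, and 1.34 ± 0.27, adjusted p = 0.0592). For HDM201 it passed with a variance prior that follows the signal (adjusted p = 0.0314), with array weights (0.0441), and on leaving out DMSO replicate 6, RG7112 replicate 3, RG7112 replicate 4, HDM201 replicate 1 or HDM201 replicate 5 (0.0312 to 0.0442). CMBL went from 0.42 between the sets under DMSO to 1.06 and 1.00 under the compounds, and DRAM1 from -0.06 to 0.87 and 0.62. TP53I11 went from -0.46 to 0.76 and 0.85. Its DMSO replicate 3 read 6.74, below the next lowest DMSO value of 7.67, and without it the DMSO difference was -0.12. For 27 of 42 members the change was larger within replicates 1 to 3 than within 4 to 6, for each compound. The share over all probes was not counted, so this number cannot be read as particular to the members.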

How the data were processed

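RNA of 18 OCI-AML3 cultures was amplified and biotin-labelled with the WT Pico kit for arrays, as the labels state. The authors deposited log2 signals. The submitters' processing notes name the oligo package and RMA (background correction, quantile normalization and summary per probe set) without a version, and the genome build is one not given in the sources used here. A platform table gave 17709 of 21448 probes 1 symbol. The highest-mean probe per symbol was to be used, and each member had 1 probe. All probes went into limma 3.58.1 (R 4.3.3) together, 1 mean for each treatment from the 18 arrays, followed by empirical Bayes and Benjamini-Hochberg adjustment over the whole table. A second model had a mean per treatment and replicate set (1 to 3, 4 to 6). Precision is limited by 6 arrays per group. The scripts were tested on simulated data. Promoter windows came from RefSeq (GRCh38.p14).

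Members, roles and lists were chosen with earlier results of these data known. Array ranges are given for the 8 members with the highest mean change, members passing in neither comparison, the 5 widest DMSO set differences, members passing the set test, and 2 per role. Others given so, such as DDB2 and SPATA18, were chosen after their values were seen. Alternatives were another variance prior, array weights, filters on dim probes, centring, a further quantile normalization, fits on 2 groups, the replicate number or set in the model, each set alone, and each array left out.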

Additional observations from a re-analysis of the deposited data

Results flagged for a closer look

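Among 126 groups of 6 arrays (42 members in 3 groups) 4 held a flagged array. The flag marks a gap to the next array that is wide against the range of the group. Chance flags about 1 in 20, and 4 of 126 is not above that rate. RG7112 replicate 3 was the flagged array in 3 of the 4 groups. These were TRIM32 at 7.44 (next 8.02), EDA2R at 7.13 (next 7.94) and ZMAT3 at 10.2 (next 9.94). In TP53I11 it was DMSO replicate 3, at 6.74 (next 7.67). The ZMAT3 flag rests on a small gap, as its RG7112 arrays all lay between 9.82 and 10.2. RG7112 replicate 3 is also the array with the narrower signal range. Its part in these values was not tested.

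The change of TP53I3 differed between replicates 1 to 3 and 4 to 6, by 0.92 for RG7112 (adjusted p = 0.0386) and by 0.90 for HDM201 (adjusted p = 0.0236). These sets were recognised in the same arrays, which limits what the p-values can show. The RG7112 call was lost on leaving out any of 14 single arrays, and the HDM201 call on leaving out any of 7.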

How the results depend on the processing

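The counts of members that passed in the 3 comparisons stayed within 1.5 times the reported value under every alternative run, and so did the 19 members whose DMSO sets do not overlap. Of 2602 values of single members under an alternative (changes against DMSO, and the set test of TP53I3 and GDF15) none changed sign, 50 lost the call and 28 gained it. The count of members whose change differs between the sets was 1. It became 2 with a prior that follows the signal (GDF15 gained), 9 with array weights, and 0 to 2 with 1 array left out. Among all probes the same count was 32, and became 41 with that prior and 527 with array weights. The rise with array weights was thus not confined to the members. The cause was not tested. With the replicate block 37 members passed for RG7112 and 39 for HDM201, where TRIM32 (adjusted p = 0.0437) and IKBIP (0.0455) were gained and ABCA12 (0.0661) was lost. With the replicate set as a term 40 passed for HDM201. Over all probes 4780 passed for RG7112 and 4866 for HDM201 with the block, and 4569 for HDM201 with the set term. The main fit had 3757 for RG7112 and 4032 for HDM201. Same-numbered arrays had correlations of their deviations between 0.02 and 0.44, above 0.1 in 16 of 18 pairs, and 14 of 18 arrays correlated best with their own number. This is a hint in the data that same-numbered arrays share something, which the labels do not state. The deviations were taken from group means, and same-numbered arrays belong to the same replicate set. Differences between the sets therefore enter these correlations too, and their part was not tested. Pairing was to be taken only with every pair above 0.1, so the fit without the block was kept. Set differences without RG7112 replicate 3 or DMSO replicate 3 were added after seeing the data. No member had several probes, so averaging probes changed nothing. The dim signals of ABCA12 and SPATA18 limit what can be read from them.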
